A study of Mus musculus with 24 samples.

Results

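The genes described here are 10 genes of MHC class I antigen presentation, taken by gene name from the 56941 genes listed for 24 libraries of contracting muscle tissue. They are B2m, H2-K1, H2-D1, Tapbp, Tap1, Tap2, Nlrc5, Psmb8, Psmb9, and Psmb10. The list was chosen with earlier results of these same libraries known, and which of their values it was chosen by is not stated. Every comparison of these genes between the conditions, 10 Hz included, is therefore a description and not independent evidence of a direction.

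The tissues were sheets of C2C12 (mouse myoblasts that fuse to form contracting myotubes) cultured on grooved fibrin hydrogels. All 24 tissues, controls included, expressed the blue light-gated channel ChR2(H134R) fused to tdTomato, and all were grown in medium with horse serum and IGF-1. Of these, 6 biological replicates were left unstimulated (control) and 6 each were exercised with blue light at 1, 4, or 10 Hz for 60 min daily during differentiation. Unstimulated tissues also twitched spontaneously, so the control is not a tissue at rest. Every tissue came from the same engineered line, so the p-values measure the spread between cultures and not between animals. The sample labels state that low-input samples were ribodepleted in place of poly(A) selection without saying which ones.

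MHC class I molecules show peptides from inside the cell to CD8 T cells. Proteasomes cut proteins into peptides, the TAP transporter carries them into the endoplasmic reticulum, and tapasin helps load them onto a heavy chain paired with beta 2-microglobulin. Mature muscle fibers carry little class I at their surface, and interferons are the best known inducers of these genes in muscle as in other tissues.

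Of the 10 genes, 8 had enough counts to be tested, and 7 of those 8 rose at both 1 and 4 Hz on TMM-scaled counts, while on the deposited TPM values only B2m at 1 Hz passed the test. The 7 were the light chain B2m, the heavy chains H2-K1 and H2-D1, the loading factor Tapbp, the transporter subunits Tap1 and Tap2, and the transactivator Nlrc5. The log2(fold change) of the 7 ran from 0.38 (Tapbp) to 0.66 (Tap1) at 1 Hz and from 0.36 (Tapbp) to 0.95 (Tap1) at 4 Hz. The proteasome subunit Psmb10 was not called at any frequency, and none of the 8 was called at 10 Hz. Psmb8 and Psmb9 were near the limit of detection in all conditions.

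The genes lie on 3 chromosomes (GRCm39, GENCODE M39). B2m is on chromosome 2 (chr2:121977957-121983594, plus strand). Nlrc5 (chr8:95160984-95253900, plus strand) and Psmb10 (chr8:106662362-106665077, minus strand) share chromosome 8. The other 7 lie in the MHC on chromosome 17, where Psmb9, Tap1, Psmb8, and Tap2 fill 34.9 kb from the start of Psmb9 to the end of Tap2. Psmb9 (chr17:34400960-34406738, minus strand) and Tap1 (chr17:34405996-34416199, plus strand) overlap on opposite strands, and their RefSeq starts are 226 bases apart. Psmb8 is at chr17:34416690-34420428 and Tap2 at chr17:34422501-34435829, both on the plus strand. H2-K1 (chr17:34214987-34219321, minus strand), Tapbp (chr17:34134873-34148267, plus strand), and H2-D1 (chr17:35481691-35486475, plus strand) lie on either side.

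Promoters of class I genes are known for a conserved set of elements. These are a kappaB site bound by NF-kappaB, an interferon-stimulated response element (ISRE) bound by IRF factors, and an SXY module with an X2 box bound by CREB and ATF1 and a Y box bound by NF-Y, through which NLRC5 acts. The promoters of the light chain and both heavy chains are shown because these 3 genes had the highest levels and because all 4 elements could be found in each. The last capitals of H2-D1 are a further Y match read on the other strand. Each sequence holds the 200 bases before the RefSeq transcription start, 5′ to 3′ in the direction of the gene, with letters that match a motif in capitals. They were taken from RefSeq promoters (table of build GRCm38.p6) and placed on GRCm39 by exact match, at chr2:121977968-121978167 (plus strand) for B2m, chr17:34219322-34219521 (minus strand) for H2-K1, and chr17:35481870-35482069 (plus strand) for H2-D1.
B2m: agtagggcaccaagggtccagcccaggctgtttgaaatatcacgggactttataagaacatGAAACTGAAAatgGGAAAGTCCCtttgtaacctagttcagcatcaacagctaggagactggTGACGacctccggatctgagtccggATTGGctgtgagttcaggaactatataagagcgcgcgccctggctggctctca
H2-K1: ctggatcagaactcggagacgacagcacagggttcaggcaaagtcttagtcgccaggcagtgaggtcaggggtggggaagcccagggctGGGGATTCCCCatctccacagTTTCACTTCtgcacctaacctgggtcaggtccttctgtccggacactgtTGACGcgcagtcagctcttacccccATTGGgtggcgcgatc
H2-D1: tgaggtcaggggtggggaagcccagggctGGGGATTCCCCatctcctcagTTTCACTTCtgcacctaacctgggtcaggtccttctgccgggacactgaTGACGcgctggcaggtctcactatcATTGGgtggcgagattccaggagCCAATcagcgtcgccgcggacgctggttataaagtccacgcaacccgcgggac

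Both strands were searched for 6 motifs. These were GAAA and GAAA with 2 bases of any kind between them (ISRE), a shorter ISRE (GAANNGAAA) that can overlap it, GGGA, N, T, NN, and CC in a row (kappaB), TGACG (X2), ATTGG (Y), and TTCNNNGAA (the gamma interferon-activated element, GAS) in the 300 bases from 250 before to 50 after each start. The motifs were chosen after the values of the genes were known. In the capitals of B2m the order is ISRE, kappaB, X2, and Y, and in both heavy chains it is kappaB, shorter ISRE, X2, and Y. An ISRE of either form was found in 10.4% of the 32851 RefSeq promoters, kappaB in 4.16%, X2 in 20.8%, and Y in 37.4%. All 4 were found together in 15 promoters, or 0.0457%, and these belong to 14 genes.

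Among those 14 genes, 12 were tested, and 7 of them are class I genes (B2m, H2-K1, H2-D1, H2-M3, H2-Q4, H2-Q7, and H2-T22). All 7 had a positive log2(fold change) at 4 Hz with an adjusted p under 0.05, and 6 of them also at 1 Hz, where H2-M3 had an adjusted p of 0.065. Of all tested genes, 27.5% were higher at 4 Hz and 19.2% at 1 Hz, and B2m, H2-K1, and H2-D1 are among the genes selected on these libraries, so nothing is read from this count. Of the other 5 tested genes, Abcf2 (-0.63), Utp14a (-0.44), and Hgs (-0.25) fell at 4 Hz, and Ndfip2 and Trim26 had values of 0.02 and -0.02 that were not called.

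Tap1 and Psmb9 share the region between their starts. It is shown for Tap1 (chr17:34406330-34406529, plus strand) because the 2 genes are read from it in opposite directions, and the capitals mark X2.
Tap1: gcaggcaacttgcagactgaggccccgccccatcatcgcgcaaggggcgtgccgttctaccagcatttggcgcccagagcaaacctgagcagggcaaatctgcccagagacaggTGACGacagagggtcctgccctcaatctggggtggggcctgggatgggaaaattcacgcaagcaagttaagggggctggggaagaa
X2 and Y both had a match in the 300 bases of Tap1 and of Psmb9, as in 7.73% of all promoters, and Tapbp had Y without X2. The X2 and the Y match of Tap1 are the same letters as those of Psmb9, read from the opposite strand, so they are 1 pair of matches found for both genes. Psmb8 had a GAS match, which 8.3% of promoters hold. Psmb10 had none of the 6 motifs, and Tap2 and Nlrc5 had no entry in the promoter table. A match names letters only, so neither a match nor its absence shows whether a factor binds there.

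**Figure D1:**
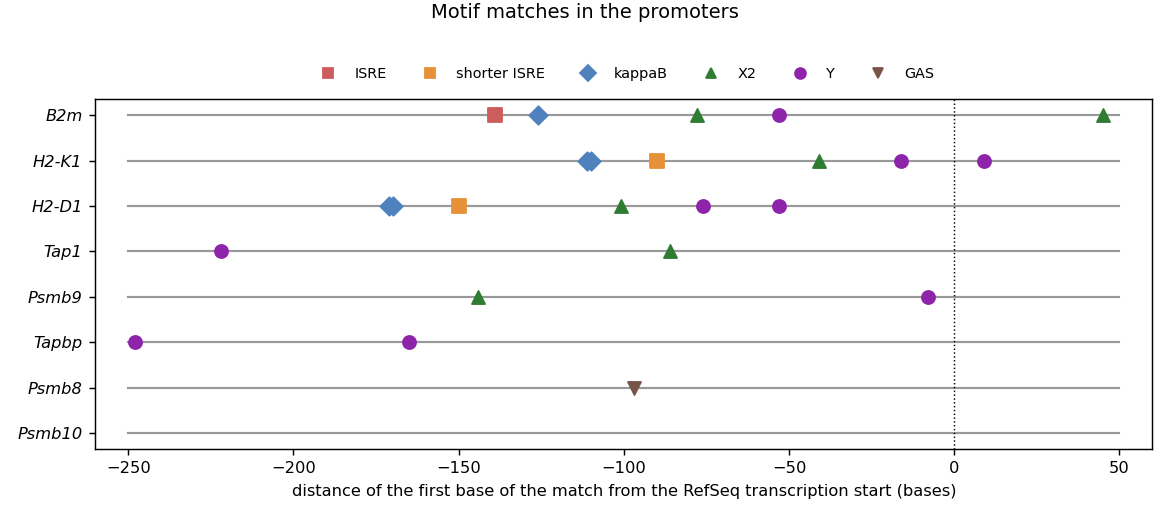
Motif matches in the 300 bases around the RefSeq start of 8 genes, with the distance of each match from the start in bases on the horizontal axis and 1 gene per row. ISRE, kappaB, X2, and Y markers stand together only in the rows of B2m, H2-K1, and H2-D1, and the row of Psmb10 is empty.

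Levels between genes were compared in TPM, a transcript abundance that is corrected for length. B2m had the highest level in the control with a median of 1092 TPM, and H2-K1 (200 TPM) and H2-D1 (124 TPM) followed. In the control, Tapbp had a median of 42.6 TPM, Psmb10 13.7, Tap2 6.58, Tap1 2.53, and Nlrc5 1.10. Control ranges of neighbors in this order did not overlap down to Tap2 and Tap1, and those of Tap1 (1.42 to 4.31 TPM) and Nlrc5 (0.381 to 2.58 TPM) did. Psmb9 (0.196 TPM) and Psmb8 (median 0 TPM) came last. B2m made up 73.7% ± 0.73 (SD, n = 6) of the summed TPM of the 10 genes in the control, and the ratio of B2m to the sum of H2-K1 and H2-D1 was 3.37 ± 0.12 in the control, 3.63 ± 0.42 at 1 Hz, 3.38 ± 0.39 at 4 Hz, and 3.34 ± 0.23 for the highest frequency. Its control range overlapped that of every frequency.

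Changes between conditions were read from CPM, the count of a gene relative to the TMM-scaled library total, with edgeR's quasi-likelihood test on 13315 genes and Benjamini-Hochberg adjustment over all of them. A gene was called at an adjusted p under 0.05. By this rule 7 of 8 tested members were higher at 1 Hz, beside 19.2% of all tested genes, and 7 of 8 at 4 Hz, beside 27.5%. No member was lower, beside 18.1% of all genes at 1 Hz and 23.9% at 4 Hz. The median log2(fold change) of the 8 members was 0.43 at 1 Hz and 0.47 at 4 Hz, against 0.04 and 0.06 over all tested genes. With the further threshold of log2(fold change) over 0.5, 3 members remained at 1 Hz (Tap1, B2m, and Nlrc5; 7.19% of all genes) and 3 at 4 Hz (Tap1, H2-D1, and Nlrc5; 12.8% of all genes). At 10 Hz 0 of 8 were called higher by edgeR, beside 0.015% of all genes (2 genes), and DESeq2 called 0 as well. By edgeR, 4 members (B2m, H2-K1, H2-D1, and Tapbp) had an unadjusted p under 0.05 at 10 Hz. In either direction, 1074 of the 13315 tested genes had the same.

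**Figure D2:**
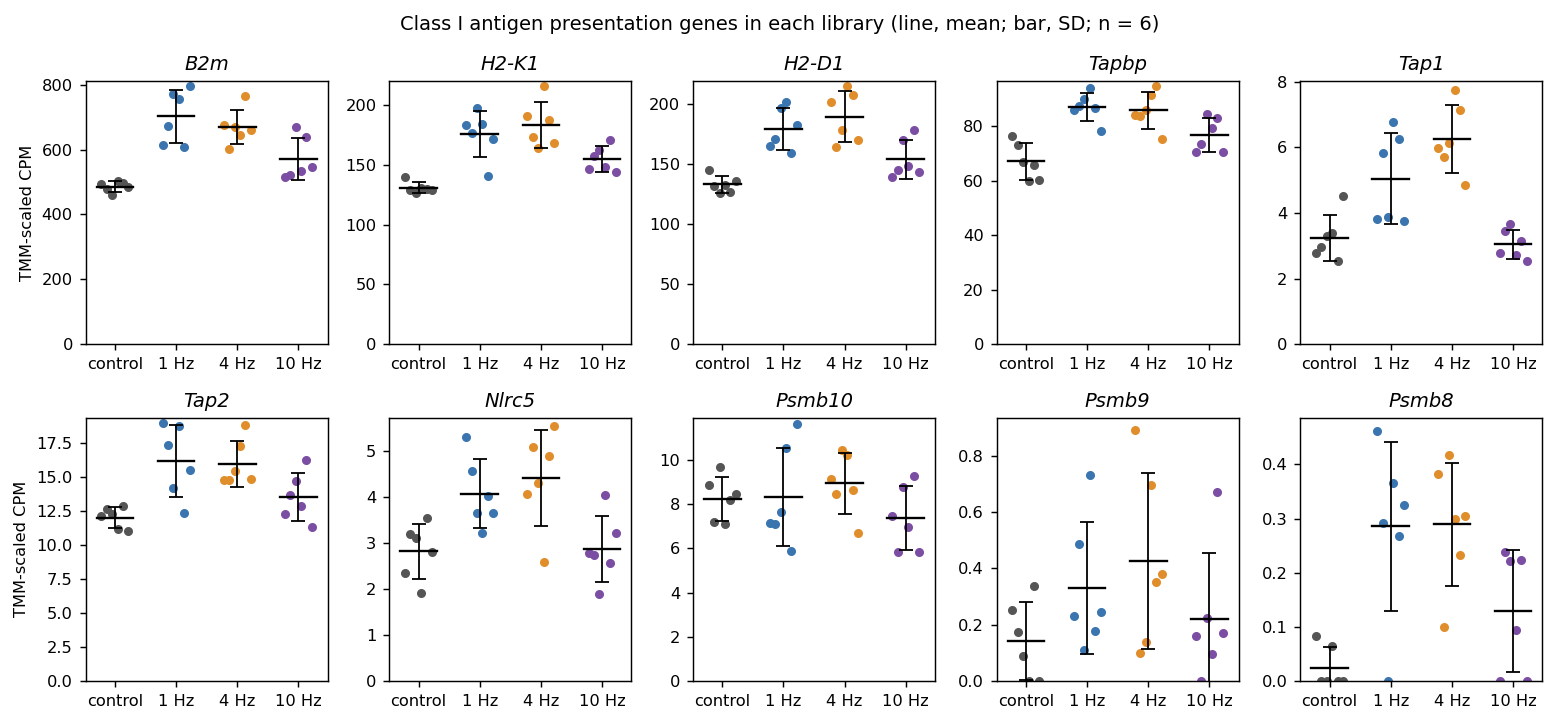
TMM-scaled CPM of each of the 10 genes (vertical axes, each from 0) in every library of the control, 1, 4, and 10 Hz, with the mean as a line and the SD as a bar (n = 6). For B2m and H2-K1, every exercised library stood above every control library, and for Psmb8 and Psmb9 many libraries were at or near 0.

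B2m encodes the light chain that every class I molecule needs to reach the surface. Its level ran from 459 to 504 CPM in the control (median 489), 608 to 794 at 1 Hz (713), 602 to 765 at 4 Hz (665), and 516 to 669 at 10 Hz (540). All 18 exercised libraries lay above the highest control, and the 1 and 4 Hz ranges covered each other. Against the control, B2m had a log2(fold change) of 0.53 ± 0.08 (SE) with 1 Hz, 0.46 ± 0.08 with 4 Hz, and 0.23 ± 0.08 with 10 Hz, and adjusted p-values of 1.4e-05, 3.8e-05, and 0.39. In the same fit, 10 Hz was lower than 1 Hz by a log2(fold change) of -0.30 (adjusted p = 0.0066).

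H2-K1 and H2-D1 encode the classical heavy chains that hold the peptide. H2-K1 ran from 126 to 140 CPM in the control (median 130), 141 to 198 at 1 Hz (180), 165 to 216 at 4 Hz (181), and 144 to 171 at 10 Hz (153). H2-D1 ran from 125 to 145 CPM in the control (median 132), 159 to 202 at 1 Hz (177), 164 to 214 at 4 Hz (190), and 139 to 178 at 10 Hz (146). No library of 1 or 4 Hz overlapped the controls for either gene, and at 10 Hz this held for H2-K1 only, since 3 of 6 libraries of H2-D1 fell within the control range. In the order 1, 4, and 10 Hz, the log2(fold change) of H2-K1 was 0.42 ± 0.07, 0.49 ± 0.07, and 0.24 ± 0.07. For H2-D1 the values were 0.43 ± 0.08, 0.51 ± 0.08, and 0.21 ± 0.08.

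Reads of the heavy chains cannot be assigned without doubt. Of the 50-base windows of the H2-K1 transcript, 8.79% also occur in transcripts of another gene, most often H2-D1 (6.94%). For H2-D1 the share is 14.2%, most often with H2-Q1 (7.35%). Estimated counts of both genes were not whole numbers in 24 of 24 libraries, and those of B2m, which shares no window with another gene, were whole in every library. Psmb8, Psmb9, Psmb10, and Nlrc5 share no window either. Counts were not whole in 6 libraries for Psmb10 and in 1 for Nlrc5, and were whole throughout for Psmb8 and Psmb9. The departures of Psmb10 and Nlrc5 were minute, such as 122.999 for Psmb10 in control replicate 2, where H2-K1 was at 2217.662. C2C12 comes from C3H mice, whose class I alleles differ from those of the C57BL/6J reference, and the part of this in the levels was not tested.

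Tapbp encodes tapasin, which bridges the empty class I molecule to the transporter. It ran from 59.8 to 76.4 CPM in the control (median 66.4), 78.4 to 94.1 at 1 Hz (87.1), 75.4 to 94.8 at 4 Hz (85.0), and 70.4 to 84.4 at 10 Hz (76.4). The control and 1 Hz ranges were apart, while 1 of 6 libraries at 4 Hz lay within the control range. Its log2(fold change) in the same order was 0.38 ± 0.07, 0.36 ± 0.07, and 0.19 ± 0.07.

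Tap1 and Tap2 encode the subunits of the peptide transporter. Tap1 ran from 2.53 to 4.51 CPM in the control (median 3.13), 3.74 to 6.77 at 1 Hz (4.86), 4.87 to 7.76 at 4 Hz (6.05), and 2.54 to 3.67 at 10 Hz (2.96). The 1 Hz libraries parted into 3 at 3.74 to 3.87 CPM, within the control range, and 3 at 5.84 to 6.77 CPM, above it. At 4 Hz all 6 stood above the controls, and at 10 Hz all 6 lay within the control range.

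Tap1 had the highest log2(fold change) of the 8 tested members at both 1 Hz (0.66 ± 0.17) and 4 Hz (0.95 ± 0.17), and a value of -0.09 ± 0.18 at 10 Hz. Tap2 ran from 10.99 to 12.8 CPM in the control (median 12.2), 12.3 to 19.0 at 1 Hz (16.4), 14.8 to 18.8 at 4 Hz (15.1), and 11.3 to 16.2 at 10 Hz (13.3). The log2(fold change) of Tap2 in the order 1, 4, and 10 Hz was 0.43 ± 0.11, 0.41 ± 0.11, and 0.16 ± 0.11. Whether Tap1 and Tap2 differed in the size of their change was not tested. Psmb9, which overlaps Tap1 on the opposite strand, had 73 counts over the 24 libraries against 1142 for Tap1.

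Nlrc5 encodes the transactivator that acts through the SXY module of class I promoters. It ran from 1.92 to 3.55 CPM in the control (median 2.96), 3.23 to 5.32 at 1 Hz (3.84), 2.59 to 5.55 at 4 Hz (4.61), and 1.89 to 4.04 at 10 Hz (2.76). At both 1 and 4 Hz, 5 of 6 libraries lay above the highest control and 1 lay within the control range. At 1 Hz the log2(fold change) was 0.52 ± 0.19 (adjusted p = 0.031), at 4 Hz 0.65 ± 0.19 (adjusted p = 0.0054), and at 10 Hz 0.04 ± 0.19. Leaving out single libraries ended the first of these calls, namely without control replicate 1 (adjusted p = 0.062) or 4 (0.10) and without 1 Hz replicate 1 (0.077) or 2 (0.062).

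**Figure D3:**
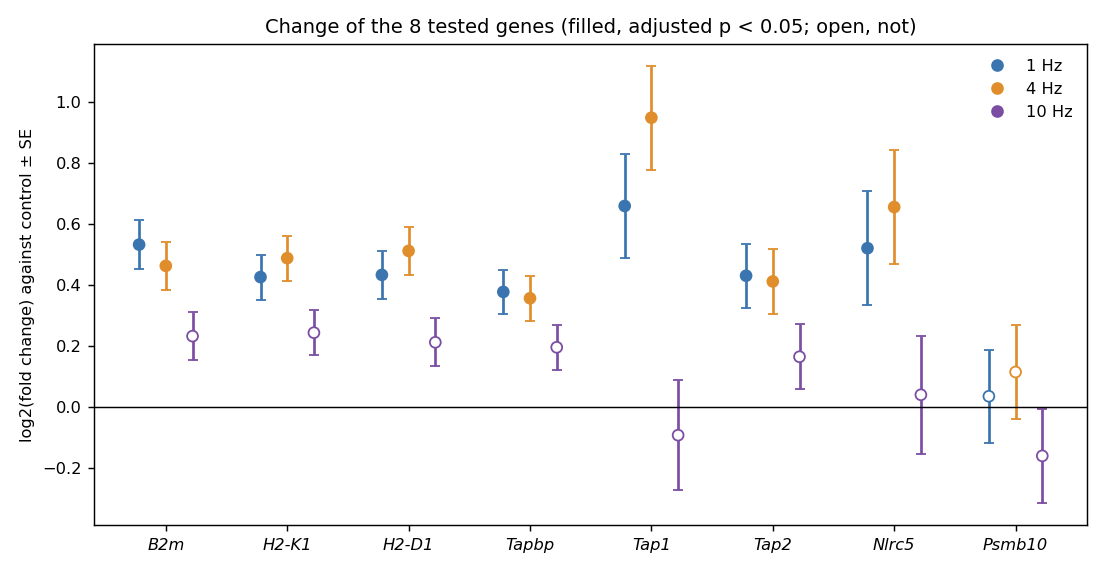
Log2(fold change) against the control with its SE (vertical axis) for the 8 tested genes at 1, 4, and 10 Hz, with filled points for an adjusted p under 0.05. Filled points stand for 7 genes at 1 and 4 Hz, and all points of 10 Hz and of Psmb10 are open.

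Psmb8, Psmb9, and Psmb10 encode the catalytic subunits that replace Psmb5, Psmb6, and Psmb7 in the immunoproteasome, which cuts peptides suited to class I. Psmb10 was the only one of the 3 with enough counts to be tested. It ran from 7.09 to 9.69 CPM in the control (median 8.32), 5.90 to 11.6 at 1 Hz (7.40), 6.69 to 10.4 at 4 Hz (8.90), and 5.82 to 9.28 at 10 Hz (7.22). All ranges overlapped. At 1 Hz Psmb10 had a log2(fold change) of 0.03 ± 0.15, at 4 Hz of 0.11 ± 0.15, and at 10 Hz of -0.16 ± 0.15. Without the 5 libraries with the highest ribosomal protein level, the value was -0.25 at 1 Hz and -0.09 at 4 Hz, so no direction can be given. On the deposited TPM values, as log2(TPM + 1), Psmb10 stood 0.22 above the control with either of these frequencies, again without a call. There, only B2m had a higher value among the tested members at 1 Hz, and none had at 4 Hz. The smaller value of Psmb10 beside the 7 called genes thus belongs to TMM-scaled counts and was not seen on TPM.

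Psmb8 had 45 counts in all 24 libraries together. The control libraries held 2 counts in sum (none in 4 of 6 libraries), and those of 1, 4, and 10 Hz held 20, 16, and 7. Per count of depth this was 10.9 times the control at 1 Hz (95% exact interval 2.64 to 95.9), 10.2 times at 4 Hz (2.40 to 91.6), and 4.48 times at 10 Hz (0.853 to 44.2). These intervals cover counting error only. With no filter on low counts, edgeR gave Psmb8 an adjusted p of 0.0047 at 1 Hz and 0.0044 at 4 Hz among 27811 genes.

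Psmb9 had 11 counts in the control, 25 at 1 Hz, 24 at 4 Hz, and 13 at 10 Hz. Relative to the control this was 2.47 times at 1 Hz (95% exact interval 1.17 to 5.56), 2.79 times at 4 Hz (1.31 to 6.30), and 1.51 times at 10 Hz (0.63 to 3.73), of which 12 counts at 1 Hz came from 1 library. The unfiltered fit did not call it (adjusted p = 0.22 at 1 Hz and 0.094 at 4 Hz).

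The constitutive partners were far more abundant than these subunits. In TPM, Psmb8 made up a median of 0% of Psmb8 and Psmb5 together in the control and 0.468% at 1 Hz, 0.408% at 4 Hz, and 0.307% at 10 Hz. Psmb9 made up 0.0735% of Psmb9 and Psmb6 in the control and 0.139%, 0.211%, and 0.0914% at 1, 4, and 10 Hz. Psmb10 held a larger share, with 5.65% of Psmb10 and Psmb7 in the control, 7.48% at 1 Hz, 7.77% at 4 Hz, and 6.34% at 10 Hz, and the control range (5.05% to 7.66%) overlapped all others. Of Psmb5, Psmb6, and Psmb7, only Psmb6 at 4 Hz was called (0.39, adjusted p = 0.012), and without the same 5 libraries it was not (0.18, adjusted p = 0.12). Without them Psmb5 was lower at 1 Hz (-0.22, adjusted p = 0.027), against 0.03 with them.

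The 3 frequencies were also compared with each other, as a description, since the genes were selected on these libraries. Between 4 and 1 Hz, edgeR called none of the 8 members and 0% of all tested genes, and 0 members had an unadjusted p under 0.05, which 1465 of all genes had. On TMM-scaled counts, 10 Hz was lower than 1 Hz for 3 members (Tap1, B2m, and H2-D1), beside 13.1% of all genes. On the same scale it was lower than 4 Hz for 5 members (Tap1, B2m, H2-K1, H2-D1, and Nlrc5), beside 24.4%. Tap1 had the widest difference between 10 and 4 Hz, with a log2(fold change) of -1.04 ± 0.18. In mean TPM, B2m (1274 against 1212) and H2-K1 (241 against 218) were instead higher at 10 than at 4 Hz, with overlapping ranges. Of the 5, Tap1, H2-D1, and Nlrc5 were lower at 10 Hz in mean TPM as well. The frequencies were not tested against each other on TPM.

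Complete separation of the libraries gives a reading without a test, but on the same TMM-scaled CPM. At 1 Hz, 4 members (Tapbp, B2m, H2-K1, and H2-D1) had every library above every control, as did 5.55% of all tested genes. At 4 Hz there were 5 (Tap1, Tap2, B2m, H2-K1, and H2-D1), beside 12.9% of all genes. At 10 Hz there were 2 (B2m and H2-K1), beside 0.774% of all genes, although neither passed the test there. In TPM the pattern differed. B2m at 1 Hz (1211 to 1580 TPM) lay above every control there too. H2-K1 at 1 Hz (186 to 296 TPM) overlapped the control (192 to 208), as did B2m at 4 Hz (964 to 1507, control 1064 to 1151). At 10 Hz, B2m (1200 to 1401 TPM), H2-K1 (225 to 261), and H2-D1 (135 to 146, control 120 to 133) lay above every control.

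These calls depend on the scale. The deposited TPM values sum to the same total in every library, and on log2(TPM + 1) with limma the median of all genes was lower than the control by -0.14 at 1 Hz and -0.21 at 4 Hz. On that scale 1 member was called at 1 Hz (B2m, 0.31, adjusted p = 0.0052) and 0 at 4 Hz. Over all genes, TMM-scaled counts gave 2554 higher and 2408 lower calls at 1 Hz, and TPM gave 481 and 2933. At 4 Hz the counts were 3664 and 3178 with TMM and 782 and 4818 with TPM.

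Relative to the median of all genes on the TPM scale, the members stood higher by 0.15 (Nlrc5) to 0.46 (B2m) at 1 Hz and by 0.20 (Nlrc5) to 0.43 (Psmb10) at 4 Hz. A pseudocount of 1 makes differences of genes at a low level, such as Nlrc5 and Tap1, smaller. With log2(TPM + 0.1), neither of these 2 was called at 1 or 4 Hz either. What sets the TPM and TMM scales apart was not tested. The mean TPM of Nlrc5 was 1.37 ± 0.89 in the control, 1.33 ± 0.73 at 1 Hz, and 1.26 ± 0.36 at 4 Hz, where its log2(TPM + 1) difference turned to -0.0074.

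**Figure D4:**
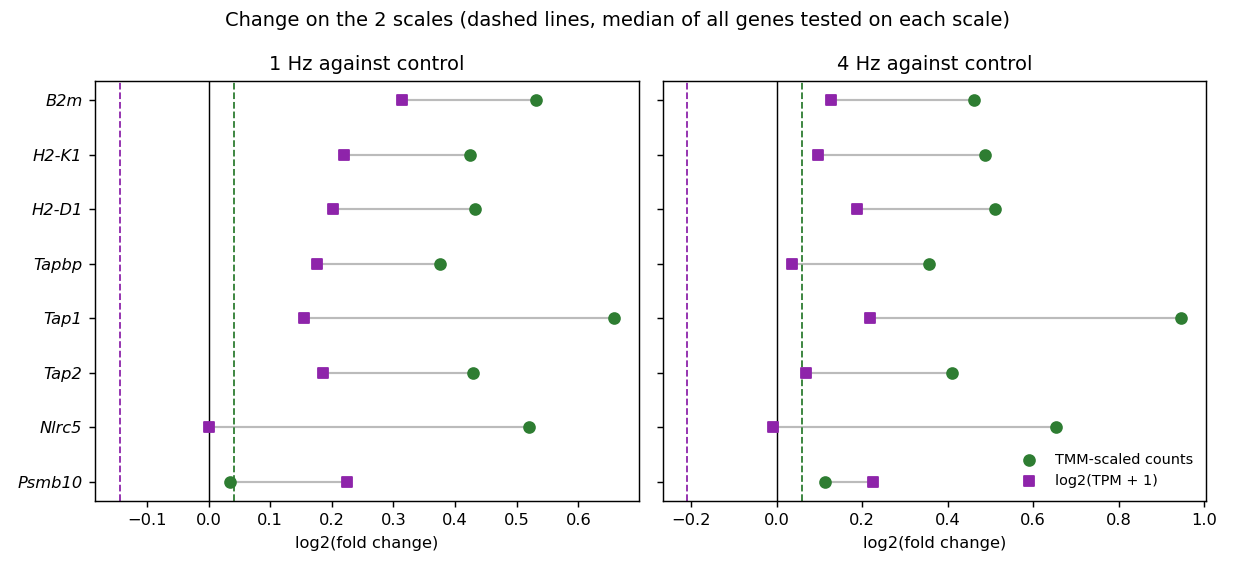
Log2(fold change) (horizontal axis) of the 8 tested genes at 1 Hz and 4 Hz on TMM-scaled counts (circles) and on log2(TPM + 1) (squares), with dashed lines at the median of all genes on each scale. The squares lie left of the circles for every gene except Psmb10, and the TPM median lies below 0.

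Library composition moved with the same conditions, and its part in the members' values was not tested. Ribosomal protein transcripts summed to 43943 to 50891 CPM in the control, 45305 to 73423 at 1 Hz, 53373 to 76063 at 4 Hz, and 42812 to 54052 at 10 Hz. Mitochondrial transcripts made up 1.37% to 2.72% of counts in the control, 1.52% to 4.87% at 1 Hz, 0.545% to 8.90% at 4 Hz, and 1.44% to 2.56% at 10 Hz. The 5 libraries above 65000 (1 Hz replicates 4 and 6, and 4 Hz replicates 1, 3, and 4) were left out in a further fit, and the same 7 members were then called at both frequencies. Replicate 6 of 4 Hz, with 4.34% mitochondrial counts, was not among the 5, and without it alone 7 members were called at 4 Hz. In the fit without the 5 libraries, B2m had a log2(fold change) of 0.45 at 1 Hz and Nlrc5 one of 0.85 at 4 Hz. Total estimated counts per library ran from 8052369 to 18159144.

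Most other class I heavy chains that could be tested rose as well, in a list that includes the class I-like molecules Mr1, Cd1d1, Hfe, and Fcgrt. Of 23 chains besides H2-K1 and H2-D1, 14 were tested, 9 rose at 1 Hz and 11 at 4 Hz, beside 19.2% of all tested genes at 1 Hz and 27.5% at 4 Hz. By edgeR 0 fell, beside 18.1% and 23.9%, with a median log2(fold change) of 0.40 and 0.49. Of the class I-like molecules, Mr1, Hfe, and Fcgrt were among the genes that rose at 1 Hz, and Mr1, Cd1d1, and Fcgrt at 4 Hz. H2-Q4, a non-classical chain, had the smallest p at both frequencies (0.63 ± 0.11 and 0.68 ± 0.11). H2-T23, which encodes the Qa-1 molecule read by NK cell receptors, rose by 0.42 and 0.50. Class I chains share sequence, so their counts are not independent of the members.

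Of 13 other genes for peptide loading and trimming, 5 rose at 1 Hz and 6 at 4 Hz, beside 19.2% of all tested genes at 1 Hz and 27.5% at 4 Hz. Among them were Calr (0.39 and 0.51), the chaperone calreticulin, and Pdia3 (0.37 and 0.33), its partner in the loading complex. Both are general folding factors of the endoplasmic reticulum. Erap1, which trims peptides to the length class I takes, fell at 4 Hz (-0.46, adjusted p = 0.0051), and its call was lost without the 5 libraries (adjusted p = 0.11).

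Genes that act before the transporter included both directions. Of 6 cytosolic peptidases, Npepps rose (0.31 and 0.25, but -0.053 at 4 Hz on log2(TPM + 1)) and Tpp2 fell (-0.35 and -0.56) at 1 and 4 Hz. Lap3 fell at 4 Hz (-0.17, adjusted p = 0.010), with 6 of 6 libraries below every control. Among 21 other proteasome subunits, assembly factors, and activators, 2 rose and 3 fell at 1 Hz, and 7 rose and 3 fell at 4 Hz. Of all tested genes, 19.2% rose and 18.1% fell at 1 Hz, and 27.5% rose and 23.9% fell at 4 Hz, so these counts were below or near the background. The 2 that rose at 1 Hz were Psme1 (0.48, and 0.62 at 4 Hz) and Psme2 (0.55, and 0.63 at 4 Hz), which form the PA28 activator linked to class I peptides. Psme3, which forms the nuclear activator of the same family, fell by -0.53 and -0.71.

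**Figure D5:**
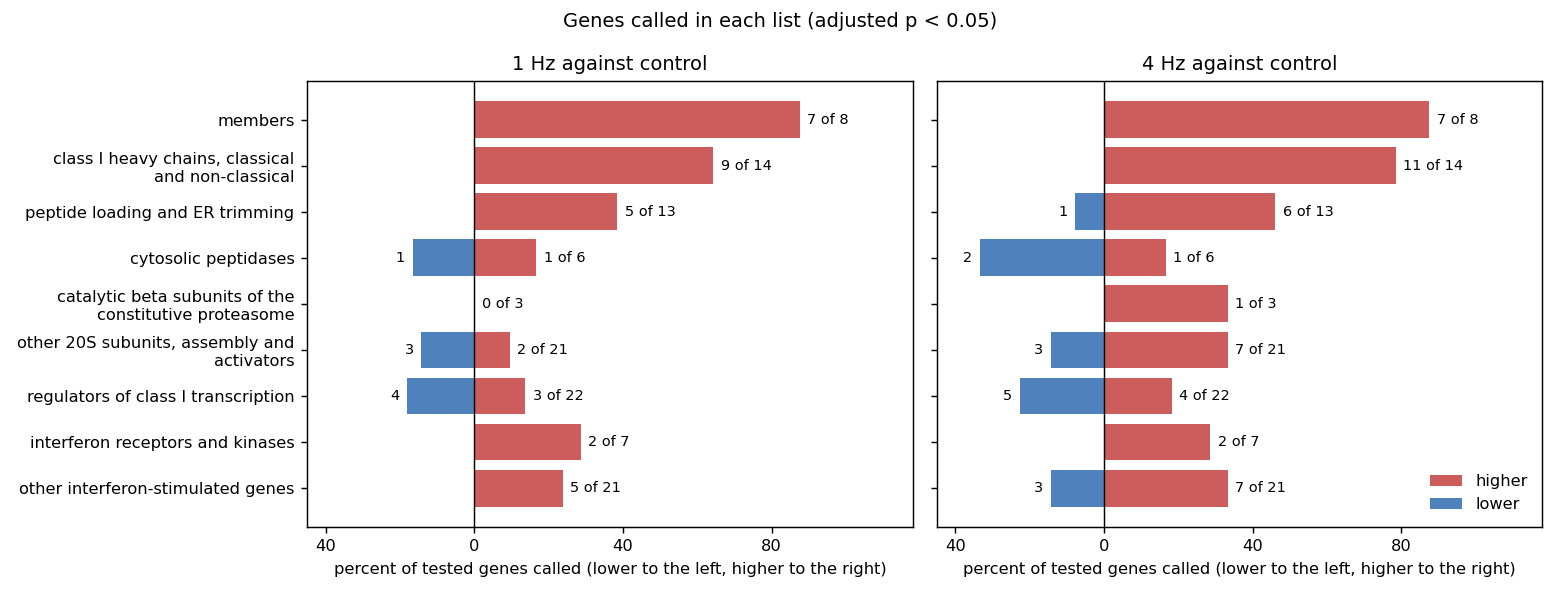
Percent of the tested genes of each list (horizontal axis) called higher (right of 0) or lower (left of 0) at 1 Hz and 4 Hz, with the number of genes beside each bar. The bars of the members and of the class I heavy chains reach furthest to the right and have no part to the left.

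Known regulators of class I transcription were called at shares near or below the same background. Of 22 tested, 3 rose and 4 fell at 1 Hz, and 4 rose and 5 fell at 4 Hz. Rfxank, a subunit of the RFX complex that binds the X1 box, rose (0.40 and 0.62), and Creb1, a factor of the X2 box, fell (-0.55 and -0.69). Of the genes of NF-Y, which binds the Y box, Nfya (-0.32 and -0.44) and Nfyc (-0.45 and -0.73) fell at both frequencies. Nfyb was called lower at 4 Hz only (-0.23). Irf3 fell as well (-0.62 and -0.74), and Socs1, an interferon target that brakes cytokine signaling, rose (0.88 and 1.14). Irf1, the interferon-induced activator of the ISRE, was at -0.12 ± 0.11 and 0.10 ± 0.11 and was not called, although on log2(TPM + 1) it was lower at 1 Hz (-0.33, adjusted p = 0.047).

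Interferon-stimulated genes outside the pathway rose at shares near the background of 19.2% and 27.5%. Of 43 listed genes 21 had enough counts. At 1 Hz 5 rose and 0 fell, and at 4 Hz 7 rose and 3 fell, while 18.1% and 23.9% of all tested genes fell. The median log2(fold change) of the list was 0.24 and 0.23, against 0.04 and 0.06 over all tested genes. Ube2l6, the conjugating enzyme of ISG15, rose at both (0.37 and 0.36), and Bst2, which tethers budding virus, rose at 4 Hz (0.59). Trim25 (-0.40) and Parp9 (-0.55) fell at 4 Hz. Without the 5 libraries, Ube2l6 and Bst2 were not called at 4 Hz (adjusted p = 0.11 for each). Among 7 interferon receptors and kinases, Ifnar2 and Jak1 rose at both frequencies, by 0.20 and 0.25 for Ifnar2. Leaving out single libraries ended the call of Ifnar2 at 1 Hz in 5 of 12 edgeR fits (adjusted p up to 0.11). Ifnar1 had a value of -0.15 at 4 Hz, with an adjusted p of 0.083 by edgeR and 0.040 by DESeq2. At 10 Hz, edgeR called 0 genes in every one of these lists.

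Of the class II pathway, 1 gene fell at both frequencies. Of 8 genes of class II presentation 2 were tested, and 4 were at 0 in all 24 libraries. H2-DMa, the peptide editor of class II, fell by -0.86 at 1 Hz and -1.11 at 4 Hz. Cd74, the invariant chain, had a value of 0.55 at 1 Hz (adjusted p = 0.041) and 0.17 at 4 Hz. Its call at 1 Hz was lost without any 1 of 7 libraries (control replicates 1, 2, 3, and 4, and 1 Hz replicates 3, 4, and 6), with adjusted p-values up to 0.14.

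Of 12 leukocyte markers 1 was tested, Cd68, and its level of 52.2 ± 4.51 CPM in the control made up nearly all of the list. Summed levels ran from 48.5 to 59.4 CPM in the control, 42.7 to 74.5 at 1 Hz, 48.5 to 69.0 at 4 Hz, and 40.1 to 55.0 at 10 Hz, and Cd68 was not called at any frequency. Ptprc, the marker shared by all leukocytes, was at 0 in 6 of 6 libraries of the control and of 1 Hz and in 5 of 6 of 4 Hz and of 10 Hz, with at most 0.0998 CPM. All 12 skeletal muscle markers were tested, and they summed to 12581 to 15933 CPM in the control, 10565 to 18682 at 1 Hz, 14465 to 17721 at 4 Hz, and 12030 to 14694 at 10 Hz. Myog, a factor of myoblast differentiation, fell (-1.34 and -1.47 at 1 and 4 Hz), and the contractile genes Mylpf (0.57) and Tnnc2 (0.46) rose at 4 Hz. Of 5 tested fibroblast markers, Pdgfra (0.28 and 0.36) and Dcn (0.39 and 0.43) rose and Col1a1 fell (-0.70 and -0.71). The part of these markers in the members' values was not tested.

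The 8 tested members were correlated to different degrees. Over the 24 libraries, the correlation (Pearson's r) of log2 CPM between 2 members had a median of 0.61 (28 pairs), from -0.11 to 0.94. After the mean of each condition was removed it had a median of 0.32, from -0.64 to 0.79. The highest values in both readings belonged to H2-K1 and H2-D1, which share reads. Within conditions Nlrc5 had a negative correlation with all 7 other members, from -0.084 (Tap2) to -0.64 (H2-D1). These values share libraries and depth and are a description, with no test.

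The genes most like the mean of the members over 24 libraries were Atf4 (r = 0.96), Nupr1, Sertad1, Pip4p1, and Hmgb2. After the condition means were removed they were Atp6ap1 (r = 0.89), Hcfc1r1, Ctsz, Prkcsh, and Hoxa5, so that no gene appeared in both sets. Likeness was measured as Pearson's r with the average of the standardized log2 CPM of the 8 members.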

How the data were processed

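RNA of 24 libraries (6 per condition) was sequenced as 50-base read pairs. The authors processed the reads with nf-core/rnaseq on GRCm39 with the Ensembl annotation. The deposited estimated counts per gene come from Salmon, were not normalized, and were rounded here to whole numbers. The deposited TPM values were divided by transcript length and scaled to the same sum in each library by the authors. How counting used the strand is not given in the sources used here. Depth ranged from 8052369 to 18159144 estimated counts, and the biological coefficient of variation was 14.8%.

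Genes were kept by filterByExpr in edgeR 4.0.16 (R 4.3.3, minimum count 10, minimum total 15), scaled by TMM, and tested by the quasi-likelihood F test in 1 fit over all 24 libraries with Benjamini-Hochberg adjustment over 13315 genes. The alternatives changed the size factors (RLE, upper quartile), the filter (none, or a stricter one), the samples fitted (2 groups alone), or the terms (a replicate block), or used DESeq2 1.42.0 or limma 3.58.1 on log2(TPM + 1) and log2(TPM + 0.1). Each library was left out in turn, and, chosen after seeing the data, 5 libraries together. The scripts were tested on simulated data.

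The members and all lists were chosen with earlier results of these data known. Named genes are every member, the gene of smallest p in each direction of each list at 1 and 4 Hz, Psmb5, Psmb6, Psmb7, Psme1, Psme2, Irf1, and the 5 genes most like the members, and 1 further gene of the rule is not reported here. H2-T23, Pdia3, Lap3, the called muscle and fibroblast markers, Socs1, Irf3, Jak1, and the genes with all 4 promoter motifs were named after their values were seen. The same holds for Mr1, Cd1d1, Hfe, Fcgrt, Nfya, Nfyb, and Nfyc. Of the gene identifiers, 98.9% were found in GENCODE M39, and 8 of the 10 members had a RefSeq promoter.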

Additional observations from a re-analysis of the deposited data

Results flagged for a closer look

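In 2 of the 40 sets of 6 libraries (10 genes in 4 conditions), 1 library lay further from the others than Dixon's critical value for 6 values at 95% allows. H2-K1 in control replicate 1 was at 140 CPM, with the next control at 131 CPM (gap over range 0.659). Psmb9 in 10 Hz replicate 5 was at 0.671 CPM, or 6 counts, with the next library at 0.222 CPM (0.669). Chance flags about 1 set in 20, which for 40 sets is also 2.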

How the results depend on the processing

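The same 7 members were called at 1 and 4 Hz with RLE or upper-quartile factors, with only 2 groups in the fit, and without the 5 libraries. With no filter, Psmb8 was called at both frequencies and Nlrc5 only at 4 Hz (7 and 8 members), and DESeq2 added Psmb8 at 4 Hz (7 and 8). The strict filter did not test Nlrc5 and called the other 6. Members called numbered 3 and 3 with log2(fold change) over 0.5 and 1 and 0 on log2(TPM + 1) and on log2(TPM + 0.1). At 10 Hz 0 were called under each of these. Nlrc5 at 1 Hz lost its call with no filter (adjusted p = 0.080).

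Over all genes, log2(fold change) over 0.5 gave 958 higher and 1030 lower calls at 1 Hz and 1709 and 1635 at 4 Hz. No filter gave 1661 higher at 1 Hz. TPM + 1 gave 481 higher at 1 Hz and 782 higher and 4818 lower at 4 Hz, and TPM + 0.1 gave 475, 755, and 4807. Without the 5 libraries 2289 were higher at 4 Hz. At 10 Hz, where 2 were higher and 3 lower, 2 groups in the fit gave 16 and 42, DESeq2 21 and 40, the 5 libraries left out 9 and 18, TPM 0 and 0, no filter 5 lower, the strict filter 1 higher, and single libraries left out 1 to 2 higher. The causes were not tested.

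The replicate number did not pair the samples (correlation of deviations from -0.17 to 0.17). With it as a block, 7, 7, and 0 members were called at 1, 4, and 10 Hz, and 1 gene of all was higher at 10 Hz. Of the other genes named for the smallest p of their list, only Cd74 at 1 Hz lost its call (adjusted p = 0.056).

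Some log2(fold change) values changed sign. On log2(TPM + 1) at 1 Hz these were Psmb5 (-0.24), Psmb6 (-0.050), and Psmb7 (-0.11), at 4 Hz Nlrc5 (-0.0074), Cd74 (-0.19), Irf1 (-0.20), Npepps (-0.053), Psmb5 (-0.072), and Psmb7 (-0.11), and at 10 Hz Nlrc5 (-0.11) and Psmb10 (0.060). On log2(TPM + 0.1) they were Psmb5 (-0.24), Psmb6 (-0.050), and Psmb7 (-0.11) at 1 Hz, Cd74 (-0.28), Irf1 (-0.22), Npepps (-0.053), Psmb5 (-0.073), and Psmb7 (-0.12) at 4 Hz, and Nlrc5 (-0.14) and Psmb10 (0.065) at 10 Hz. Without the 5 libraries Psmb10 (-0.25), Psmb5 (-0.22), Psmb6 (-0.074), Psmb7 (-0.11), and Ifnar1 (0.013) at 1 Hz and Psmb10 (-0.086), Cd74 (-0.27), and Irf1 (-0.12) at 4 Hz did so. With single libraries left out, Psmb10 ran from -0.11 to 0.12, Psmb5 from -0.12 to 0.088, and Psmb7 from -0.00082 to 0.18 at 1 Hz, Cd74 from -0.022 to 0.29 at 4 Hz, and Nlrc5 from -0.083 to 0.13 and Tap1 from -0.15 to 0.015 at 10 Hz.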
